A study of Mus musculus with 7 samples.

Results

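Zinc and iron transport and storage genes were examined in alveolar macrophages, phagocytes that live in the air sacs of the lung, from mice labelled as Cish knockouts. The members were 34 genes chosen by name from the deposited count table: Slc39a and Slc30a zinc transporters, metallothioneins with their regulator, and genes of iron uptake, storage, sensing and export. All 34 were found among the 27179 rows of the table, and all 34 were among the 12759 genes with enough reads to be tested. RNA was sequenced from 3 libraries labelled Cish KO (KO 1 to KO 3) and 4 libraries labelled WT (WT 1 to WT 4). All mice were C57BL/6 and 4 months of age, and no treatment is named. Cish encodes a SOCS family protein that restrains signalling from cytokine receptors through STAT5. The Cish allele, the markers used for the cell sort, and the number of mice behind each library are not stated in the labels. The p-values therefore measure the spread between libraries, which may be partly technical. The transcripts of several members can share reads with other genes. Exons of Slc30a1, Slc30a7, Slc11a2, Slc25a37, Mtf1, Ftl1 and Pcbp1 overlap genes on the other strand, by 36 to 1165 bases. Ftl1 also overlaps a microRNA gene on its own strand by 109 bases. For the other members concerned the overlap is given beside them.

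Cells take up zinc into the cytosol through the ZIP transporters encoded by Slc39a genes and move it out of the cytosol through the ZnT transporters encoded by Slc30a genes. Metallothioneins bind the free ion, and the transcription factor Mtf1 raises their transcription when zinc is plentiful. Iron enters bound to transferrin or with engulfed red cells, is stored in ferritin and leaves through ferroportin. Macrophages of spleen and liver recycle the iron of old red cells, and macrophages in general withhold both metals from microbes.

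Total counts lay between 26780291 and 30989230 in KO libraries and between 30637634 and 34483612 in WT libraries. Cish itself had 12.9, 14.3 and 10.9 CPM (read counts scaled to library size with TMM factors) in KO 1 to KO 3, against 46.3, 29.6, 38.1 and 67.9 CPM in WT 1 to WT 4 (log2 fold change -1.84, adjusted p 0.0519 in edgeR and 2.81e-11 in DESeq2), and reads of it were present in every KO library. All 10 alveolar macrophage markers examined were expressed, with summed levels of 46732 to 79905 CPM in KO and 21796 to 57515 CPM in WT. That sum was mostly Chil3, at 40503 to 72178 CPM in KO and 16623 to 50491 CPM in WT, and single markers went both ways. By DESeq2 Siglecf and Ear1 were lower in KO (log2 fold changes -0.41 and -0.37 in edgeR, DESeq2 adjusted p 0.00323 and 0.0415) and Mrc1 was higher (0.29, DESeq2 adjusted p 0.0370), while edgeR called 0 of the 10 (4 higher and 2 lower at an unadjusted p below 0.05). WT 4 stood apart from the other WT libraries: on the first principal component it lay at -7.27, beside KO libraries at -43.9 to -18.3, while the other WT libraries lay at 24.1 to 39.4. WT 4 and KO 3 are the last columns of the deposited table, after the other WT and KO libraries, and results are therefore also given without both. On the first principal component KO 3, at -18.3, was also the KO library nearest to WT. Leaving out WT 4 and KO 3 thus removes the library of each genotype nearest to the other. That by itself can raise the number of calls. The labels name no batch, and whether these libraries share one was not tested. The summed level of red cell markers was 546, 856 and 285 CPM in KO 1 to KO 3, against 348, 77.7, 13.6 and 328 CPM in WT 1 to WT 4. It came almost wholly from globins and Alas2, while Slc4a1, the anion exchanger of the red cell membrane, was at most 0.147 CPM. Epithelial markers summed to 123 to 157 CPM in KO and 165 to 349 CPM in WT. Epcam had 9.24, 29.5 and 92.6 CPM in KO 1 to KO 3, against 135, 302, 261 and 136 CPM in WT 1 to WT 4 (log2 fold change -2.25, adjusted p 0.143 in edgeR). It led the sum in KO 3 and in WT, and Sftpc led it in KO 1 and KO 2. The 5 markers other than Epcam had log2 fold changes of 0.88 to 1.77, and edgeR called none of them. Neutrophil markers summed to 13.5 to 35.2 CPM in KO and 7.76 to 20.5 CPM in WT, with Ly6g at 0 in every library. Monocyte and interstitial macrophage markers summed to 11.1 to 28.8 CPM in KO and 9.45 to 23.0 CPM in WT, and T and B cell markers to 3.60 to 7.49 CPM in KO and 1.94 to 5.23 CPM in WT. In such bulk samples fewer cells of a type and less RNA per cell cannot be told apart.

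KO was compared with WT, the only contrast of the design. By DESeq2 the zinc importer Slc39a2 and the metallothionein Mt2 were higher in KO, with fold changes of 2.01 and 1.99 in the edgeR fit, and the iron carrier Trf was 1.28-fold lower. The ferritin chains had fold changes of 1.27 for Fth1 and 1.17 for Ftl1, and passed neither test. By edgeR's quasi-likelihood test with Benjamini-Hochberg adjustment over all genes, 0 of the 34 passed an adjusted p of 0.05, where 0.0862% of all genes did. The smallest adjusted p was 0.0797, for Slc39a2. At an unadjusted p below 0.05 there were 10 members (29.4%), 8 higher and 2 lower in KO, against 18.0% of all genes (9.15% higher and 8.85% lower). DESeq2 called 4 members (11.8%), with Slc39a2, Mt2 and Slc39a6 higher and Trf lower, against 5.71% of all genes (2.68% higher and 3.02% lower). CPM values of the genotypes did not overlap for 6 members (17.6%), 4 higher and 2 lower in KO, against 16.0% of all genes (7.23% higher and 8.72% lower), a share near the background. Without WT 4, edgeR called 1 member, Slc39a2, and 2.25% of all genes. Without KO 3 it called Slc39a2, Mt1 and Mt2 and 1.67% of all genes, and without both libraries the same 3 members and 4.57% of all genes. Higher counts without WT 4 or KO 3, each the library nearest to the other genotype, are not separate support for these members. The median log2 fold change was 0.10 over the members and 0.00 over all genes tested, with a positive value for 20 members and a negative one for 14.

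**Figure D1:**
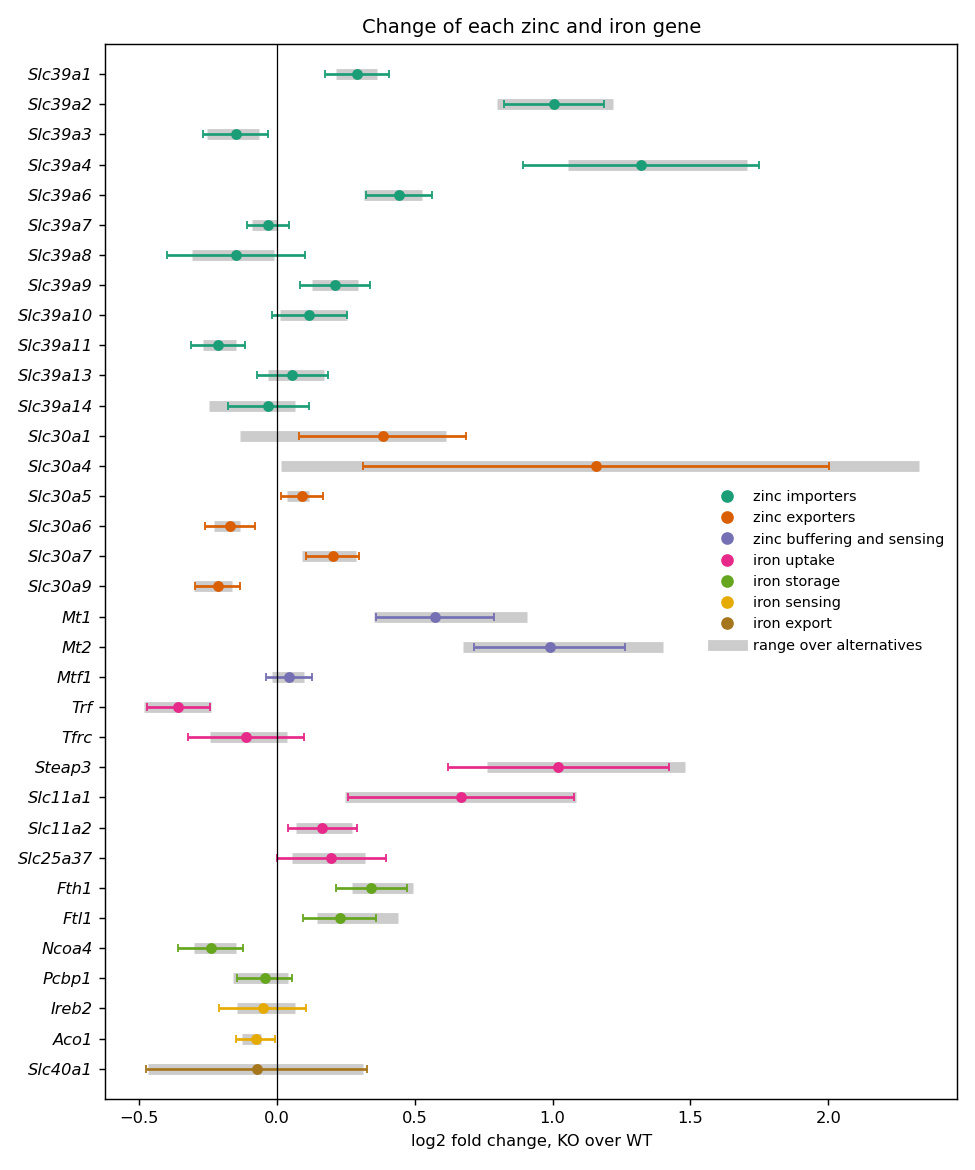
Log2 fold change (KO over WT, horizontal axis) of each of the 34 genes, coloured by role. Points are edgeR estimates, bars their standard errors and grey bands the range over all alternative analyses; Slc39a2 (1.01) and Mt2 (0.99) stay right of 0 across their whole bands, Trf (-0.36) stays left of it, and the band of Slc30a1 crosses it.

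Among the 12 zinc importers, Slc39a2, Slc39a4, Slc39a6 and Slc39a1 had an unadjusted p below 0.05, each with the higher mean in KO. Slc39a2 encodes ZIP2, an importer of the cell surface, and lies on chromosome 14 at 51892889 to 51896745 (GRCm38, the same assembly as mm10). It had 326, 225 and 220 CPM in KO 1 to KO 3, against 141, 101, 113 and 157 CPM in WT 1 to WT 4. Every KO library lay above every WT library, with KO 1 highest and WT 4 the closest WT library. The mean was 257 CPM ± 60.1 (SD, n = 3) in KO and 128 CPM ± 25.3 (SD, n = 4) in WT, which is 1.01 on the log2 scale (SE 0.18). Its adjusted p was 0.0797 by edgeR and 1.73e-05 by DESeq2. Single libraries moved the call: edgeR passed it without KO 3 (adjusted p 0.0376) and without WT 4 (0.0362), and the log2 fold change was 0.80 without KO 1 (0.297).

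The other importers of this group were expressed at lower levels. Slc39a6, which encodes the surface importer ZIP6, had 33.7, 25.3 and 27.5 CPM in KO 1 to KO 3, against 19.7, 22.8, 19.7 and 22.7 CPM in WT 1 to WT 4. The genotypes did not overlap, but KO 2 lay close to WT 2 and WT 4. The log2 fold change of Slc39a6 was 0.44 (SE 0.12), and the adjusted p was 0.124 in edgeR and 0.0341 in DESeq2. Slc39a4, the importer that takes up dietary zinc in the gut and is mutated in acrodermatitis enteropathica in humans, was close to the limit of detection. It had 50, 33 and 36 reads in KO 1 to KO 3, against 17, 7, 21 and 29 reads in WT 1 to WT 4, or 1.28 to 1.65 CPM in KO against 0.219 to 0.907 CPM in WT. On the log2 scale this was a fold change of 1.32 (SE 0.43, adjusted p 0.167 in edgeR), on few reads. Slc39a1, a surface importer found in most tissues, had 19.3, 15.7 and 17.7 CPM in KO 1 to KO 3, against 13.6, 13.6, 14.3 and 16.0 CPM in WT 1 to WT 4, so KO 2 was within the WT range (log2 fold change 0.29, adjusted p 0.231 in edgeR).

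The 8 remaining importers had log2 fold changes between -0.21 and 0.21. Slc39a7 releases zinc from the endoplasmic reticulum into the cytosol. It had 149, 142 and 157 CPM in KO and 162, 149, 153 and 147 CPM in WT (log2 fold change -0.03, SE 0.08). Its exons share 1995 bases with the annotated gene Gm20427 on the same strand, so its count may include or lack shared reads. Slc39a11 and Slc39a13, importers of internal membranes, had log2 fold changes of -0.21 and 0.06. Slc39a8 and Slc39a14, which also carry manganese, had log2 fold changes of -0.15 and -0.03. Slc39a8 was scarce in both genotypes, at 1.65 to 2.45 CPM in KO and 1.91 to 2.86 CPM in WT. The log2 fold changes were 0.12 for the surface importer Slc39a10, 0.21 for Slc39a9, found in the Golgi, and -0.15 for the surface importer Slc39a3. The exons of Slc39a9 and Slc39a13 overlap those of Erh and Psmc3 on the other strand by 459 and 97 bases.

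Levels can be compared between genes once divided by exon length (CPM per kb). In KO, Slc39a2 was the zinc importer with the highest such level in every library, at 140, 96.2 and 94.3 CPM per kb in KO 1 to KO 3, with Slc39a7 next at 60.1 to 66.6 CPM per kb. In WT, Slc39a2 was at 60.5, 43.3, 48.6 and 67.1 CPM per kb and Slc39a7 at 68.8, 63.1, 64.7 and 62.1 CPM per kb in WT 1 to WT 4. Slc39a7 thus led in WT 1 to WT 3 and Slc39a2 in WT 4. Slc39a11 and Slc39a13 followed in both genotypes, and Slc39a4 and Slc39a8 were lowest, below 1 CPM per kb. Exon lengths came from GENCODE M21, while the annotation behind the counts is unknown, so these levels are approximate. For Slc39a7, 1995 of 2362 exon bases are shared with Gm20427, so its place beside Slc39a2 may depend on how shared reads were counted.

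**Figure D2:**
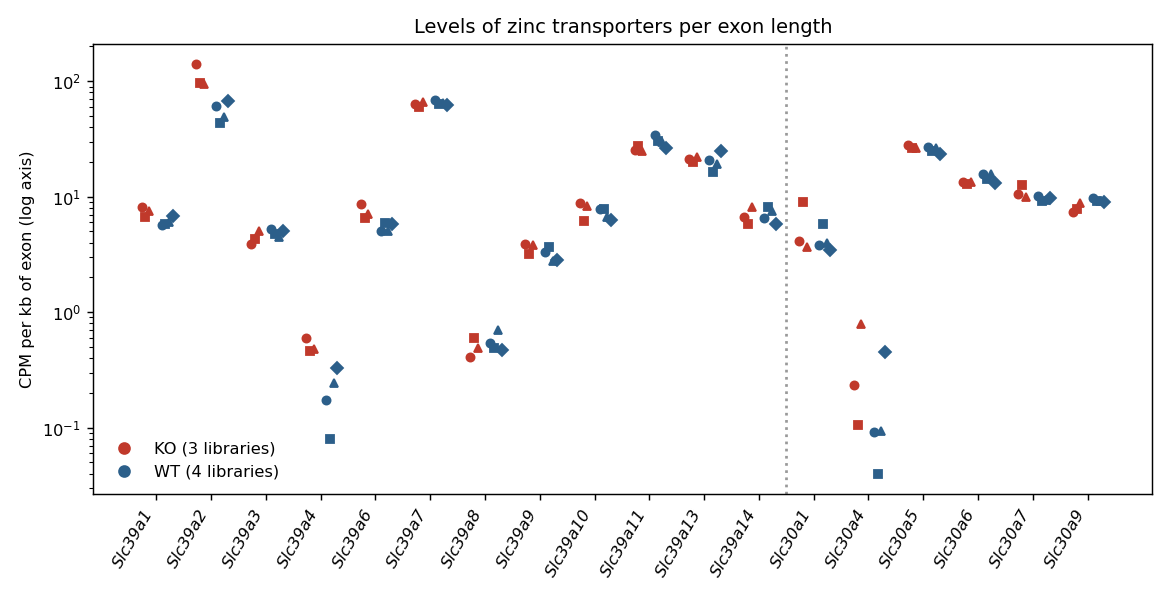
Levels of 12 zinc importers (left of the dotted line) and 6 zinc exporters (right of it) in CPM per kb of exon on a log axis, with each point a library and marker shapes numbering the libraries as circle 1, square 2, triangle 3 and diamond 4. Slc39a2 lies at 94.3 to 140 in KO and 43.3 to 67.1 in WT, while Slc39a7 overlaps between genotypes.

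Of the 6 zinc exporters, 1 had an unadjusted p below 0.05. Slc30a9, which moves zinc out of mitochondria, had 42.4, 44.8 and 49.9 CPM in KO 1 to KO 3, against 55.8, 52.2, 53.0 and 51.1 CPM in WT 1 to WT 4. The genotypes did not overlap, by a margin of about 1 CPM between KO 3 and WT 4, and its fold change was -0.21 on the log2 scale (SE 0.08, adjusted p 0.213 in edgeR). Slc30a1, the exporter of the plasma membrane and a textbook target of Mtf1, had 21.8, 46.9 and 19.2 CPM in KO 1 to KO 3, against 20.0, 30.4, 21.0 and 18.2 CPM in WT 1 to WT 4. KO 2 and WT 2 were high and the other 5 libraries were alike, and without KO 2 its log2 fold change was -0.13 in place of 0.38. Slc30a4, a transporter of endosomes and secretory vesicles, had 1.29, 0.583 and 4.38 CPM in KO, against 0.503, 0.219, 0.509 and 2.50 CPM in WT, with the high values in KO 3 and WT 4. Slc30a5 and Slc30a6, which work as a pair in the early secretory pathway, had log2 fold changes of 0.09 and -0.17, and the Golgi transporter Slc30a7 one of 0.20. Slc30a5 had the highest mean level per exon length of the exporters, 27 CPM per kb in KO and 25.4 CPM per kb in WT. Its libraries were at 88.7, 84.4 and 84.8 CPM in KO and 85.2, 79.5, 83.9 and 74.5 CPM in WT, with overlap.

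The metallothioneins, small cysteine-rich proteins that bind zinc and copper, had high values in KO 1 and KO 2 but not in KO 3. Their genes lie side by side on chromosome 8, and the promoter windows below, from RefSeq (GRCm38.p6, 250 bases before to 50 after an annotated start), are shown because Mtf1 acts through metal response elements in them. The core of that element was searched as TGCACNC and TGCGCNC on both strands, and matches stand in capitals. The Slc30a1 window is shown beside them as the exporter that Mtf1 also controls.
Mt2, chr8:94172368-94172667, plus strand: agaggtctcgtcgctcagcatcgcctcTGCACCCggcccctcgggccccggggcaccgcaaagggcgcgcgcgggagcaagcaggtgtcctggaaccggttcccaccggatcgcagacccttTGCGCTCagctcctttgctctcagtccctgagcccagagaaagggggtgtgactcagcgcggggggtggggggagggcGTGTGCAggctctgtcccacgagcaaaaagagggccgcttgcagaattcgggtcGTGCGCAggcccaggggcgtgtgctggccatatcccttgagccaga
Mt1, chr8:94178839-94179138, plus strand: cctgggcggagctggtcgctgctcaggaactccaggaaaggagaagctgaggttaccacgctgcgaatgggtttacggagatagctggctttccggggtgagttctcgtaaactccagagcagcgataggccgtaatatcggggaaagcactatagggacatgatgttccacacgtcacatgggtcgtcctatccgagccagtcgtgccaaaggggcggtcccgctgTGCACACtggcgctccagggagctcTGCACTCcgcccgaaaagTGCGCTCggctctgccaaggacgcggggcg
Slc30a1, chr1:191906531-191906830, plus strand: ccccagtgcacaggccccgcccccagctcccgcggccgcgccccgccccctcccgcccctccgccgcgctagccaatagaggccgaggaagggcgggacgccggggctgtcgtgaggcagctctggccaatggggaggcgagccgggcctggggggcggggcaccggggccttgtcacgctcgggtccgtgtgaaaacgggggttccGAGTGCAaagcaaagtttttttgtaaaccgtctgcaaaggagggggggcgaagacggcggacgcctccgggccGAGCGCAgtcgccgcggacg
These windows held 4, 3 and 2 separate matches, none overlapping another. At least 1 match was present in 25.7% of all 32851 such windows of the genome and in 13 of the 37 windows of the 27 members that could be matched. The letters TTCNNNGAA, the form bound by STAT5, were present in 8.3% of all windows and in 1 of the 37, that of Slc39a10. No window was matched for Trf, Slc39a6, Slc39a4, Slc39a14, Slc11a2, Slc25a37 and Slc40a1. Their promoters were therefore searched for neither motif, and Trf and Slc39a6 are among the members called by DESeq2. A match is a run of letters and says nothing of binding.

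Mt2 had 232, 302 and 119 CPM in KO 1 to KO 3, against 99.3, 118, 86.2 and 135 CPM in WT 1 to WT 4. KO 1 and KO 2 lay above every WT library, while KO 3 lay inside the WT range. The mean was 217 CPM ± 92.5 (SD, n = 3) in KO and 109 CPM ± 21.1 (SD, n = 4) in WT, which is 0.99 on the log2 scale (SE 0.27). The adjusted p was 0.129 in edgeR and 0.00501 in DESeq2. Mt1 had 1371, 1607 and 792 CPM in KO 1 to KO 3, against 753, 880, 753 and 993 CPM in WT 1 to WT 4, the same order within KO. For Mt1 the fold change was 0.57 on the log2 scale (SE 0.21, adjusted p 0.208 in edgeR). Without KO 3, edgeR passed both, with log2 fold changes of 1.29 for Mt2 (adjusted p 0.0188) and 0.82 for Mt1 (0.0353). Without KO 2 these were 0.67 and 0.35, and neither passed (0.244 and 0.422). Mtf1 itself had 46.1, 50.1 and 43.0 CPM in KO and 48.1, 42.2, 44.9 and 44.7 CPM in WT (log2 fold change 0.04).

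The number of Mt1 reads per Mt2 read did not overlap between the genotypes. There were 5.92, 5.32 and 6.68 Mt1 reads per Mt2 read in KO 1 to KO 3, against 7.58, 7.47, 8.74 and 7.38 in WT 1 to WT 4. The ratio does not depend on how libraries are scaled, and KO 3 lay with the other KO libraries. The difference of -1.82 had an exact permutation p of 0.0571 (2-sided), which is the smallest that 35 splits of 3 and 4 libraries can give, and the ratio was chosen after its values were seen. Red cell transcripts followed the order of the metallothioneins within KO, with summed levels of 546, 856 and 285 CPM. Within WT the orders differed, since red cell transcripts, at 348, 77.7, 13.6 and 328 CPM, were highest in WT 1. Both metallothioneins were highest in WT 4. The lung epithelial transcripts Sftpc and Scgb1a1 were also higher in KO 1 and KO 2. Sftpc was at 69.5 and 63.1 CPM there, against 19.2 CPM in KO 3 and 12.9 to 47.2 CPM in WT. Scgb1a1 was at 21.2 and 37.8 CPM, against 4.19 CPM in KO 3 and 1.08 to 13 CPM in WT. Within KO, Sftpb, Sftpa1 and Ager were also lowest in KO 3, while Epcam ran the other way, at 9.24, 29.5 and 92.6 CPM. Within WT, Sftpc and Scgb1a1 were highest in WT 4 and next in WT 2, as were Mt1 and Mt2. The part of red cell and epithelial transcripts in the result was not tested. No antisense or pseudogene row that shares exons with Mt1 was found in GENCODE M21, while an antisense gene covers 432 bases of Mt2 and the library kit does not mark strand.

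**Figure D3:**
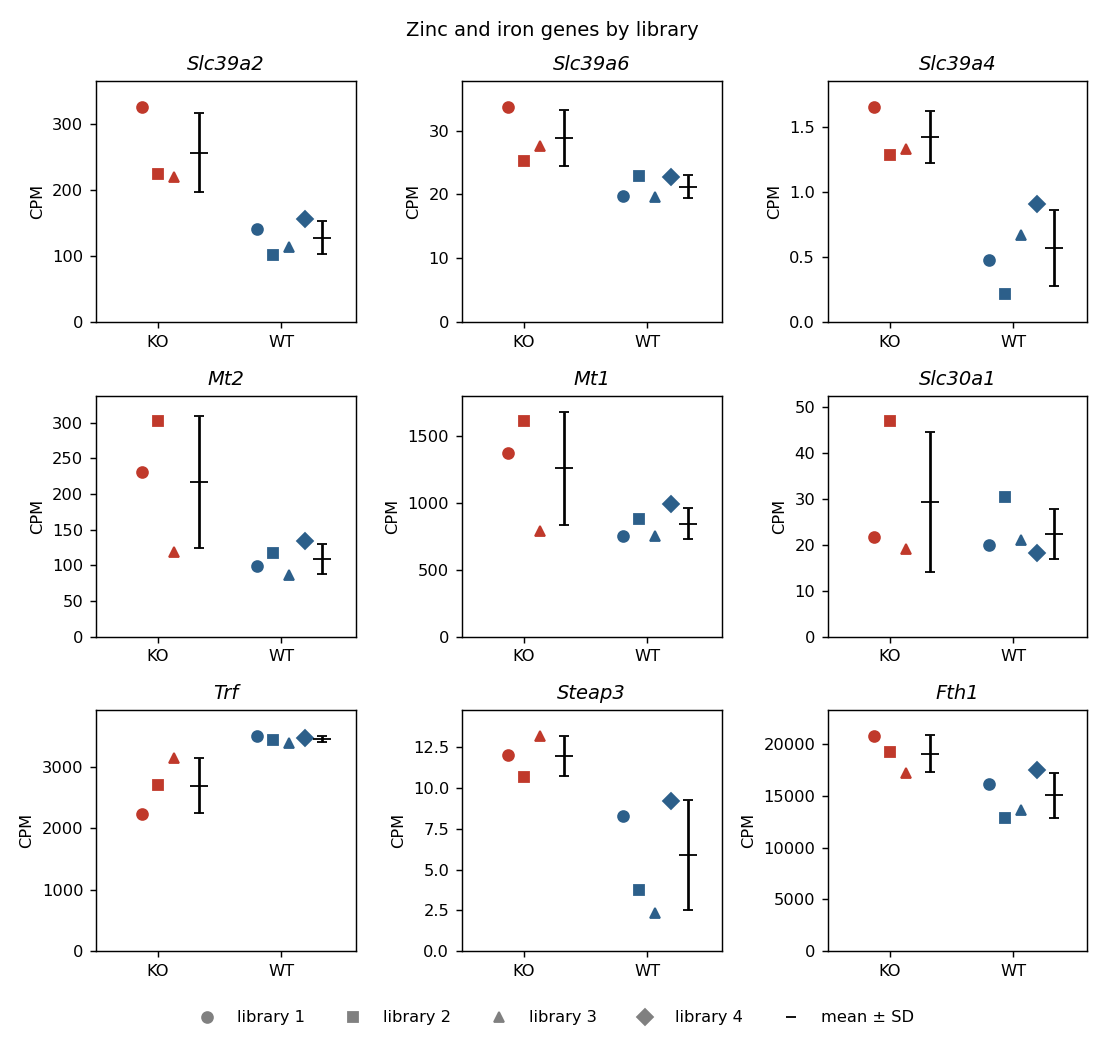
CPM per library of 9 zinc and iron genes in KO (3 libraries, left) and WT (4 libraries, right), with marker shapes for the library number and black bars for the mean ± SD. KO 3 (triangle) lies with WT for Mt1 and Mt2 at 792 and 119 CPM, Slc39a2 does not overlap between genotypes, and Trf is at 2238 to 3143 CPM in KO against 3386 to 3504 CPM in WT.

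Among the 6 genes of iron uptake, Trf had the highest level per exon length and lower values in KO, and Steap3 had higher values in KO. Trf encodes transferrin, the carrier of iron in blood and airway fluid. It had 2238, 2707 and 3143 CPM in KO 1 to KO 3, against 3504, 3445, 3386 and 3480 CPM in WT 1 to WT 4. Every KO library lay below every WT library. The highest KO value was 1.40 times the lowest, while the WT libraries were within 1.03 times of one another. The mean was 2696 CPM ± 452 (SD, n = 3) in KO and 3454 CPM ± 51.2 (SD, n = 4) in WT, which is -0.36 on the log2 scale (SE 0.11). The adjusted p was 0.164 in edgeR and 0.0494 in DESeq2, and of the 16 alternatives only DESeq2 passed Trf. Trf lies on chromosome 9 at 103204001 to 103230444, 4.07 Mb from Cish. Whether the position of Trf bears on the result was not tested. Of the 2749 exon bases of Trf, 2108 are shared with the annotated gene Gm20425 on the same strand. The count of Trf may therefore include or lack shared reads.

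Steap3, the endosomal reductase that turns ferric into ferrous iron, had 12.0, 10.7 and 13.2 CPM in KO 1 to KO 3, against 8.25, 3.72, 2.35 and 9.20 CPM in WT 1 to WT 4. The KO libraries were alike and lay above all WT libraries, but the WT values themselves spread 3.91 times. Steap3 had a fold change of 1.02 on the log2 scale (SE 0.40, adjusted p 0.230 in edgeR). WT 1 and WT 4, the WT libraries with more Steap3, were also those with more red cell transcripts, at 348 and 328 CPM against 77.7 and 13.6 CPM in WT 2 and WT 3. Within KO the order differed, since KO 3 had the most Steap3 and the fewest red cell transcripts. The part of red cells in this result was not tested.

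The transferrin receptor Tfrc had 9.61, 8.24 and 8.60 CPM in KO, against 6.91, 12.3, 7.83 and 11.1 CPM in WT, so that the KO range lay within the WT range (log2 fold change -0.11, SE 0.21). Slc11a2, which moves ferrous iron out of endosomes, had a log2 fold change of 0.17. Its relative Slc11a1, a phagosomal metal transporter that is not functional in C57BL/6 mice, had 9.31, 4.78 and 4.49 CPM in KO and 6.83, 3.22, 1.97 and 3.57 CPM in WT. KO 1 and WT 1 were the high libraries of their genotypes (log2 fold change 0.67, SE 0.41). Slc25a37, which carries iron into mitochondria and is best known from red cell precursors, had a log2 fold change of 0.20 (SE 0.20).

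Iron storage was dominated by ferritin. The heavy chain Fth1, which oxidises iron for storage, had 20772, 19223 and 17235 CPM in KO 1 to KO 3, against 16182, 12825, 13640 and 17544 CPM in WT 1 to WT 4. KO 1 and KO 2 lay above every WT library, and WT 4 lay above KO 3. The mean was 19076 CPM ± 1773 (SD, n = 3) in KO and 15048 CPM ± 2194 (SD, n = 4) in WT, which is 0.34 on the log2 scale (SE 0.13, adjusted p 0.209 in edgeR). The light chain Ftl1 had 3778, 3615 and 2799 CPM in KO, against 2867, 2603, 2721 and 3412 CPM in WT (log2 fold change 0.23). There were 5.50, 5.32 and 6.16 Fth1 reads per Ftl1 read in KO and 5.64, 4.93, 5.01 and 5.14 in WT, with overlap between genotypes (exact permutation p 0.171, 2-sided). Ferritin genes have many pseudogene copies, and the listed copy Ftl1-ps2 held 3106 to 4496 reads in KO and 3289 to 4736 reads in WT, so ferritin counts may include or lack reads of such copies. Ncoa4, the receptor that delivers ferritin to lysosomes, had a log2 fold change of -0.24 (SE 0.12), and the iron chaperone Pcbp1 one of -0.04. Together the 4 storage genes held 81.1% of all reads of the 34 genes in KO and 77.2% in WT.

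Iron sensing works through the proteins encoded by Aco1 and Ireb2, which bind stem-loops in messenger RNA when iron is low. Binding before the coding region blocks translation of the ferritins and ferroportin, and binding after it keeps the Tfrc message from decay, so the Tfrc message is more stable when iron is low. The loop sequence is shown for these messages, from GENCODE M21 transcripts, 30 bases each, with the bulged C and the loop letters in capitals.
Fth1, 5′ UTR of Fth1-201: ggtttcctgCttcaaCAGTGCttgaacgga
Ftl1, 5′ UTR of Ftl1-201: tgtgtcttgCttcaaCAGTGTttgaacgga
Slc40a1, 5′ UTR of Slc40a1-201: ttccaacttCagctaCAGTGTtagctaagt
Tfrc, 3′ UTR of Tfrc-201: gataattatCggaagCAGTGCcttccataa
The searched core was a C, any 5 bases, CAGTG and any base, on the sense strand. Tfrc-201 held 5 such cores after its coding region, and the other messages shown held 1 each before it, while Fth1-201 also held 1 after its coding region. By letters alone the core is common: it was present in 8.21% of 41462 annotated 5′ UTRs and 29% of 41784 annotated 3′ UTRs. Aco1 had 102, 104 and 106 CPM in KO, against 109, 113, 104 and 113 CPM in WT (log2 fold change -0.08, SE 0.07). Ireb2 was at 10.8 to 13 CPM in KO and 9.82 to 14.9 CPM in WT. The iron exporter ferroportin, Slc40a1, was scarce, with 150, 99 and 35 reads in KO 1 to KO 3, against 118, 156, 99 and 91 reads in WT 1 to WT 4. Its log2 fold change was -0.07, or 0.31 without KO 3.

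**Figure D4:**
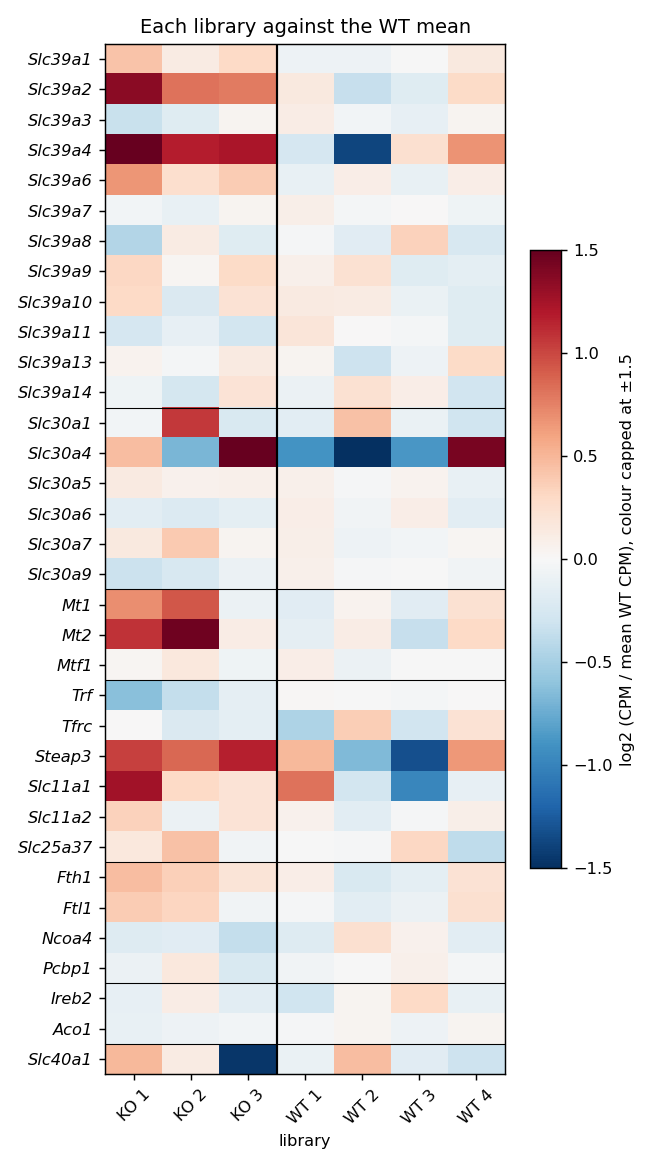
Log2 ratio of each library's CPM to the WT mean (colour, capped at 1.5 in either direction) for the 34 genes, with KO libraries left of the vertical line, WT libraries right of it and horizontal lines between roles. The rows of Slc39a2, Slc39a4, Slc39a6 and Steap3 are higher in all 3 KO libraries than in any WT library, Mt1 and Mt2 are high in KO 1 and KO 2 alone, and Slc30a4 is high in KO 3 and WT 4.

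Across the members, KO 1 was the highest of the 7 libraries for 12 genes, KO 2 for 7 and KO 3 for 2, while the WT libraries were highest for 2 to 6 genes each. KO 1 led for Slc39a2, Slc39a4, Slc39a6, Fth1 and Ftl1, and KO 2 for Mt1, Mt2, Slc30a1 and Mtf1.

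A further list of 49 genes of zinc, iron and heme iron was described in the same fit, and 28 had enough reads to be tested. Among these 0 passed edgeR's adjusted p, and 5 were higher and 2 lower in KO at an unadjusted p below 0.05 (25% of the 28, against 18.0% of all genes). DESeq2 called 1 higher and 1 lower, 7.14% of the 28 against 5.71% of all genes, a share near the background. The median log2 fold change of the list was 0.08. Epas1, which encodes HIF-2 alpha and carries an iron-responsive loop in its message, was the one called higher. It had 22.2, 12.2 and 8.79 CPM in KO 1 to KO 3. In WT 1 to WT 4 it had 4.70, 3.03, 2.10 and 5.63 CPM, without overlap between genotypes. The log2 fold change was 1.89 (SE 0.38), and the adjusted p was 0.0923 in edgeR and 2.57e-05 in DESeq2. The epithelial markers Sftpc, Sftpb and Sftpa1 also fell from KO 1 to KO 3 and were highest in WT 4 within WT. Scgb1a1 and Ager were highest in KO 2, and Epcam rose from KO 1 to KO 3. The part of epithelial cells in the Epas1 result was not tested. Cyb561a3, a lysosomal ferric reductase, was the one called lower, with 964, 943 and 1293 CPM in KO, against 1472, 1509, 1382 and 1360 CPM in WT (log2 fold change -0.42, SE 0.12, adjusted p 0.134 in edgeR and 0.0216 in DESeq2). As for Trf, KO 3 was the KO library closest to WT. Hmox1, which breaks down heme and frees its iron, had 498, 593 and 271 CPM in KO 1 to KO 3, against 367, 290, 291 and 425 CPM in WT 1 to WT 4. Like the metallothioneins it was highest in KO 2 and KO 1 and within or below the WT range in KO 3 (log2 fold change 0.40, adjusted p 0.416 in edgeR).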

How the data were processed

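The authors deposited whole-number read counts, not normalized, by gene symbol for 7 libraries. Per the submitters' processing notes the genome build was mm10 and DESeq2 was used. Per the labels' protocols, cells were sorted into TRIzol LS for column extraction and Nextera XT libraries, a kit that does not mark strand. The aligner settings, annotation and handling of multimapping reads were not given in the sources used here. Rows without a symbol (1036, holding 0.376% to 0.424% of counts) were left out.

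R 4.3.3 and edgeR 4.0.16 were used for filterByExpr, TMM scaling and the quasi-likelihood test between genotypes on 12759 genes, with Benjamini-Hochberg adjustment and a threshold of 0.05. CPM values use TMM-scaled library sizes, errors are SD between libraries or SE of the log2 fold change. Without molecular identifiers, reads copied from one molecule cannot be told apart. Alternatives used DESeq2 1.42.0, limma 3.58.1 (voom), other scalings and filters, a replicate block and left-out libraries. Values per library are given for members called by either tool, members with an unadjusted p below 0.05 and the most abundant member of each role per exon length. Slc30a1, Slc30a4, Tfrc, Slc11a1, Slc39a7, Mtf1, Ftl1 and Hmox1 were added after their values were seen. The members and lists were chosen with earlier results of these data known.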

Additional observations from a re-analysis of the deposited data

Results flagged for a closer look

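Of the 34 genes, 1 had a WT library far from the other 3: Slc30a4 in WT 4 was at 2.50 CPM, against 0.219 to 0.509 CPM in WT 1 to WT 3, by Dixon's test at the 95% level. KO 3 had the highest level of this gene, 4.38 CPM. Chance flags about 1 in 20 groups, and groups of 3 were not tested.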

How the results depend on the processing

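The edgeR count of called members was 0, and it was 4 by DESeq2 (3 with its filtering tuned to 0.1, a setting chosen after seeing the data, where Trf was not called), 2 with no filter, 1 with voom, 2 with the replicate block and 3 without WT 4 and KO 3 together. It ranged from 0 to 3 with 1 library left out. Over all genes the count of 11 became 753 by DESeq2 (730 tuned to 0.1), 397 with no filter, 21 when genes needed 5 CPM or more in 3 or more libraries, 46 with voom, 430 with the replicate block and 590 without WT 4 and KO 3, and ranged from 7 to 284 with 1 library left out. For the related genes the count of 0 became 2 by DESeq2 (2 tuned to 0.1), 1 with no filter, 2 with the replicate block and 4 without WT 4 and KO 3, and ranged from 0 to 2 with 1 library left out. The cause was not tested. Same-numbered KO and WT libraries did not deviate together (correlations -0.01, 0.14 and -0.02). With so few libraries this cannot tell whether any were paired, and the block is given for completeness. No KO library shares the number of WT 4, so the block gives WT 4 no weight in the comparison of genotypes. Every call of a member was Slc39a2, Mt2, Mt1 or Slc39a6 higher, or Trf lower. The log2 fold change changed sign for Mtf1 with library sizes only (-0.0080), for Tfrc with the replicate block (0.0092), and for Slc40a1 and Pcbp1 without WT 4 and KO 3 together (0.22 and 0.031). With 1 library left out its range spanned 0 for Slc39a13 (-0.033 to 0.17), Slc39a14 (-0.16 to 0.067), Slc30a1 (-0.13 to 0.61), Mtf1 (-0.019 to 0.097), Tfrc (-0.24 to 0.035), Slc40a1 (-0.47 to 0.31), Ireb2 (-0.14 to 0.066) and Pcbp1 (-0.16 to 0.039). None of these had passed in either direction. The ratio of Mt1 to Mt2 differed by -2.17 to -1.5 with 1 library left out, a range computed after seeing the data. Counts below about 50 reads, as for Slc39a4 and Slc30a4, limit what can be told at this depth.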
